A study of Homo sapiens with 24 samples.

Results

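Homologous recombination repairs broken DNA by copying an intact sister chromatid, which exists once a cell has replicated, and its genes are known to be expressed mainly in S and G2 phase. BRCA1 works early on resected ends, PALB2 links it to BRCA2, and BRCA2 is the main mediator of strand exchange. RAD51AP1, RAD54L and RAD54B help a broken end to pair with its template, RAD52 anneals single strands, and XRCC2 and XRCC3 act in complexes that promote the early steps of the exchange. These 9 genes, chosen by name among the 57820 genes with deposited counts, are described here across 24 RNA-seq libraries of U2OS cells. In hg19 BRCA1 lies at chr17:41196312-41277500, PALB2 at chr16:23614488-23652631 and BRCA2 at chr13:32889611-32973805. RAD51AP1 lies at chr12:4647950-4669214, RAD52 at chr12:1021243-1099219, RAD54L at chr1:46713360-46744145, RAD54B at chr8:95384188-95487337, XRCC2 at chr7:152341864-152373250 and XRCC3 at chr14:104163946-104181841. RAD51AP1, RAD54L and BRCA2 are on the plus strand and the others on the minus strand.

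U2OS is a human osteosarcoma line, and AID-DIvA cells are U2OS cells that carry an inducible AsiSI nuclease, which cuts DNA only after 4-hydroxytamoxifen is added. The AID-DIvA groups were WT or ID3-KO, untreated or treated with mocetinostat, an inhibitor of class I histone deacetylases, and then allowed to recover in medium without it; the methods give a day of treatment and then a day of recovery. The U2OS groups were WT or ID3-KO, untreated or treated with mocetinostat, and the methods describe collection directly after a day of treatment (before recovery). Each of the 8 groups had 3 biological replicates. No mocetinostat dose is given for this experiment, and how the ID3-KO cells were made, and whether they were clones, is not given in the sources used here. Nuclease induction is not mentioned for these libraries. ID3 is an inhibitor of bHLH transcription factors. Stage and cell line label coincide, so they cannot be told apart, and the library names of the U2OS groups carry the AID-DIvA name as well. In the labels of the 12 AID-DIvA libraries, titles and treatment field name opposite treatments. The titles were followed, and every treatment direction in AID-DIvA cells would turn round under the other reading.

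Total counts ran from 37878751 to 76906266 in AID-DIvA and from 46285533 to 70692114 in U2OS libraries, and every one of the 9 genes passed the filter on low counts in every comparison. The osteoblast markers COL1A1 (824 to 2528 CPM), SPARC and RUNX2 were present, whereas SP7, IBSP and COL1A2 reached at most 1.37 CPM, ALPL ran from 0.618 to 6.95 CPM and BGLAP from 0.225 to 0.689 CPM. Of the markers of other cells, PTPRC and CD3E (leukocytes) reached at most 0.407 CPM and CDH1 (epithelium) 2.002 CPM, while EPCAM (epithelium) ran from 4.42 to 10.4 CPM and VWF (endothelium) from 1.46 to 10.04 CPM. One library stood apart: replicate 1 of untreated WT U2OS differed from the other 2 replicates by a chi-square per gene of 92.4 and 82.0, against 4.06 between those 2 and at most 24.5 within any other group. Replicate 1 of treated and recovered ID3-KO AID-DIvA cells, the shallowest library, differed from its 2 partners by 18.1 and 24.1, against 4.21 between those, and its BRCA2 and RAD51AP1 levels lay lowest in its group. Values without either library are given beside the results whose call it changed or that it moved by over 1.5 times.

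ID3 itself was measured in every library first. In AID-DIvA cells its level was 47.9, 51.4 and 51.9 CPM (counts scaled to library size by TMM over the 24 libraries) in untreated WT cells and 33.3, 32.0 and 38.8 CPM in untreated ID3-KO cells. After treatment and recovery the values were 103, 129 and 125 CPM in WT and 67.3, 61.1 and 66.0 CPM in ID3-KO cells. In U2OS cells the untreated libraries held 80.7, 54.2 and 52.1 CPM (WT) and 32.2, 30.2 and 29.3 CPM (ID3-KO), and the treated ones 89.3, 78.4 and 77.6 CPM (WT) and 40.6, 30.4 and 35.2 CPM (ID3-KO). ID3 RNA was thus lower in ID3-KO than in WT cells without overlap in all 4 pairs of groups. The log2 differences were -0.56, -0.89, -1.03 and -1.21 (edgeR quasi-likelihood test, adjusted p of at most 0.00651), but the transcript was present in every ID3-KO library. ID3 protein was not analysed here. The paper reports Western blots of ID3 as its check of the knockout in AID-DIvA and U2OS cells.

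Promoter sequences show what the genes share in their DNA. Of the 9 genes, 8 have an entry in the RefSeq promoter table (GRCh38.p14, 250 bases before to 50 after an annotated start; RAD54B was not matched). The letters TTCCCGC on either strand, part of the binding site of E2F factors, which drive S phase genes, were found in 6 of 8 (BRCA1, RAD51AP1, RAD52, RAD54L, XRCC2 and XRCC3), against 7.82% of the 27305 genes in the table and 12.7% of the 10311 of them with a mean of at least 1 CPM here. A gene was counted for a motif if any of its entries held the letters. Further entries of BRCA1 (chr17:43170278-43170577) and RAD52 (chr12:989992-990291) lack TTCCCGC, and for BRCA1 the entry with it is shown. The RAD52 entry with these letters (chr12:949645-949944) lies downstream of the one without them. Shown are the promoters of the 3 genes with these letters that had the largest falls in WT U2OS cells, and that of PALB2, which fell without them. Capitals mark TTCCCGC or its reverse complement GCGGGAA, and each sequence reads 5′ to 3′ on the strand of the gene. The first is RAD51AP1 at chr12:4538640-4538939 (plus strand), the second BRCA1 at chr17:43125315-43125614 (minus), the third XRCC3 at chr14:103715402-103715701 (minus) and the last PALB2 at chr16:23641261-23641560 (minus).
RAD51AP1: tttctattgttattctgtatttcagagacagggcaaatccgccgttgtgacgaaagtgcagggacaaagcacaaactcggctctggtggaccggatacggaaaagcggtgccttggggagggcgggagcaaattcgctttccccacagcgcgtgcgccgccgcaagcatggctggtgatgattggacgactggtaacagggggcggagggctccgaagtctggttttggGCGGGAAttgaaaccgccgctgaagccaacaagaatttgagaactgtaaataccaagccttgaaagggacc
BRCA1: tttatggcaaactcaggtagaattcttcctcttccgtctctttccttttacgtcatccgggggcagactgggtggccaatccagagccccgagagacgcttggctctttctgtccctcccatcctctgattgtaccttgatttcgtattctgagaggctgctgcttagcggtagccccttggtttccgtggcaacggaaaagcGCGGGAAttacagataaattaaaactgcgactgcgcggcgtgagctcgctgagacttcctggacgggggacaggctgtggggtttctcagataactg
XRCC3: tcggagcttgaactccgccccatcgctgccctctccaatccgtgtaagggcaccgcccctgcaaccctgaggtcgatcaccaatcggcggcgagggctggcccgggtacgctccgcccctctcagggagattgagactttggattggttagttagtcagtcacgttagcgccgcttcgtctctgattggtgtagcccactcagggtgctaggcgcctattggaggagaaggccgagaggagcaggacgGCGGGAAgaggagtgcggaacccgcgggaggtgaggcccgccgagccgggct
PALB2: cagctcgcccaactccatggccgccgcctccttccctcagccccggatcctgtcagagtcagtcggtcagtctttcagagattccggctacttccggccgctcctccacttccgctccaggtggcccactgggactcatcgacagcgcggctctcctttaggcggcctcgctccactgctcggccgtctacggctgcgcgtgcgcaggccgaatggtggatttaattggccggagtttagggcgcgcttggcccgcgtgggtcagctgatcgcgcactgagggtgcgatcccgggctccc
The match began at position -21 from the annotated start in RAD51AP1, at -47 in BRCA1 and at -2 in XRCC3. The CCAAT box (letters CCAAT, either strand) was in 5 of 8 promoters (BRCA1, PALB2, RAD51AP1, RAD54L, XRCC3), against 42.8% of the measured genes, and no member had TTGGCGC or TTTGAA, held by 6.07% and 13.9%. Of the E-boxes bound by bHLH factors, CACCTG was in 2 promoters (24% of measured genes), CAGCTG in 2 (22.9%) and CACGTG in 1 (12.3%). None of the TTCCCGC matches overlapped another motif searched. A match is a run of letters and not a measured binding site.

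Most of these genes were lower in mocetinostat-treated than in untreated cells before recovery. In WT U2OS cells 6 of 9 were lower (edgeR quasi-likelihood test, adjusted p below 0.05) and none was higher, against 22.9% and 26% of all 21797 genes tested; in ID3-KO U2OS cells 8 of 9 were lower and none was higher, against 34% and 35.8% of 21176 genes. RAD51AP1 in WT cells was the 1 gene past a log2 fold change of -1, as were 5.06% of all genes there. Without the untreated WT U2OS library that stood apart, 8 of 9 were lower in WT cells. The share of all genes called in that fit was not counted, and the 22.9% does not belong to it. Over the 9 genes the log2 fold changes had a median of -0.41 in WT and -0.53 in ID3-KO cells, beside 0.01 and 0.00 over all genes tested. In bulk RNA, fewer cells of a kind, such as fewer cells in S phase, and less RNA per cell cannot be told apart.

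**Figure D1:**
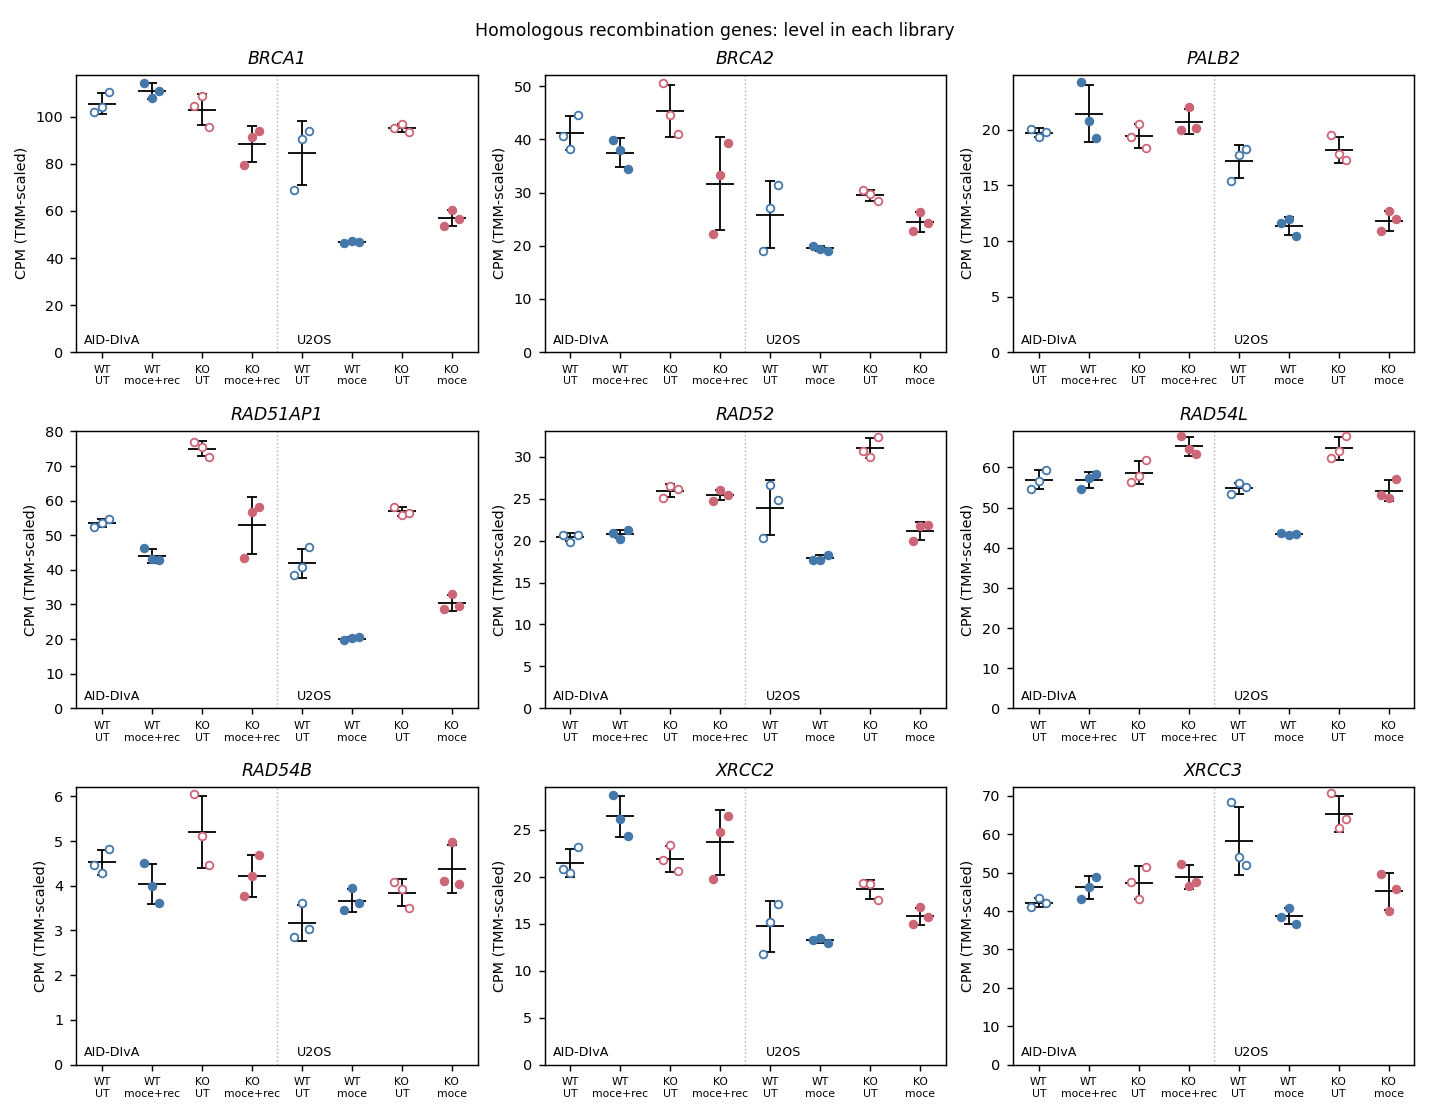
Level of each gene in CPM (TMM-scaled, linear axis from 0) in the 3 libraries of each of the 8 groups; points are libraries (open: untreated, UT; filled: mocetinostat, moce, with recovery, rec, in AID-DIvA cells; blue: WT; red: ID3-KO), lines are the mean with 1 SD. The filled U2OS points lie below the open ones of the same genotype for 6 genes (BRCA1, PALB2, RAD51AP1, RAD52, RAD54L and XRCC3), while RAD54B lies between 2.86 and 6.05 CPM throughout. The share of all genes whose groups lie apart in this way was not counted.

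Among the mediators, BRCA1 was at 69.0, 90.6 and 94.0 CPM in untreated and 46.4, 47.3 and 46.7 CPM in treated WT U2OS cells. In ID3-KO U2OS cells it was at 95.2, 97.1 and 93.4 CPM before and 53.7, 60.4 and 56.5 CPM with treatment. All 6 treated libraries lay below all 6 untreated ones, and the log2 fold changes were -0.84 ± 0.12 (SE, adjusted p = 0.00072) in WT and -0.74 ± 0.05 (adjusted p = 3.64e-12) in ID3-KO cells. The WT value was -0.97 ± 0.04 without the library that stood apart, which held the 69.0 CPM.

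PALB2 gave 15.4, 17.8 and 18.3 CPM in untreated and 11.6, 11.9 and 10.5 CPM in treated WT U2OS cells, and 19.5, 17.8 and 17.3 against 10.9, 12.7 and 11.98 CPM in ID3-KO cells. The groups did not overlap, and PALB2, the bridge between BRCA1 and BRCA2, fell in both genotypes, with log2 fold changes of -0.59 ± 0.10 in WT (adjusted p = 0.00177) and -0.62 ± 0.07 in ID3-KO cells (adjusted p = 3.77e-08). BRCA2 was at 19.1, 27.1 and 31.4 CPM in untreated and 20.0, 19.5 and 19.1 CPM in treated WT U2OS cells. Those groups overlapped through the library that stood apart, which held the 19.1 CPM, and the change of -0.39 ± 0.16 did not pass (adjusted p = 0.0809); without that library it was -0.57 ± 0.06 (adjusted p = 2.6e-12). In ID3-KO U2OS cells BRCA2 fell from 30.4, 29.7 and 28.4 to 22.8, 26.4 and 24.3 CPM, a log2 fold change of -0.26 ± 0.06 (adjusted p = 0.000365).

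RAD51AP1, which promotes strand pairing and is also on the S phase list used here, changed most. It was at 38.4, 40.9 and 46.5 CPM in untreated and 19.7, 20.2 and 20.6 CPM in treated WT U2OS cells. The ID3-KO libraries held 58.2, 55.9 and 56.5 CPM before and 28.8, 33.1 and 29.5 CPM with treatment. No treated library reached an untreated one of either genotype, with log2 fold changes of -1.05 ± 0.09 (adjusted p = 5.59e-05) and -0.90 ± 0.05 (adjusted p = 8.67e-13).

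RAD52, the annealing factor, was at 20.3, 26.7 and 24.8 CPM in untreated and 17.7, 17.7 and 18.3 CPM in treated WT U2OS cells, and at 30.7, 30.0 and 32.4 against 19.9, 21.7 and 21.8 CPM in ID3-KO cells. It fell in both genotypes (-0.41 ± 0.11, adjusted p = 0.0137, and -0.55 ± 0.06, adjusted p = 9.47e-09). RAD54L, a DNA translocase, was at 53.3, 56.0 and 55.1 CPM against 43.6, 43.1 and 43.4 CPM in WT and at 62.4, 64.0 and 67.9 against 53.2, 52.3 and 57.2 CPM in ID3-KO cells. Its falls were small but without overlap (-0.33 ± 0.07, adjusted p = 0.00413, and -0.25 ± 0.05, adjusted p = 0.000116). RAD54B, its paralog, was the exception: its values ran from 2.86 to 3.62 CPM in untreated and from 3.45 to 3.95 CPM in treated WT U2OS cells, the groups overlapped, and the estimates of 0.22 ± 0.13 and 0.19 ± 0.11 did not pass (adjusted p = 0.217 and 0.128).

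XRCC2 and XRCC3 differed from each other. XRCC3 was at 68.5, 54.1 and 52.1 CPM in untreated and 38.5, 40.8 and 36.8 CPM in treated WT U2OS cells, and at 70.7, 61.6 and 64.0 against 49.6, 40.1 and 45.9 CPM in ID3-KO cells. Its log2 fold changes were -0.58 ± 0.12 (adjusted p = 0.00475) and -0.53 ± 0.07 (adjusted p = 6.78e-07), with no overlap of the groups. XRCC2 was at 11.7, 15.2 and 17.1 CPM in untreated and 13.2, 13.5 and 13.0 CPM in treated WT U2OS cells, where the groups overlapped (-0.14 ± 0.13, adjusted p = 0.422; -0.28 ± 0.07 and adjusted p = 0.00033 without the library that stood apart). In ID3-KO cells XRCC2 was at 19.3, 19.2 and 17.5 CPM against 14.9, 16.7 and 15.7 CPM, a log2 fold change of -0.23 ± 0.06 (adjusted p = 0.0021).

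**Figure D2:**
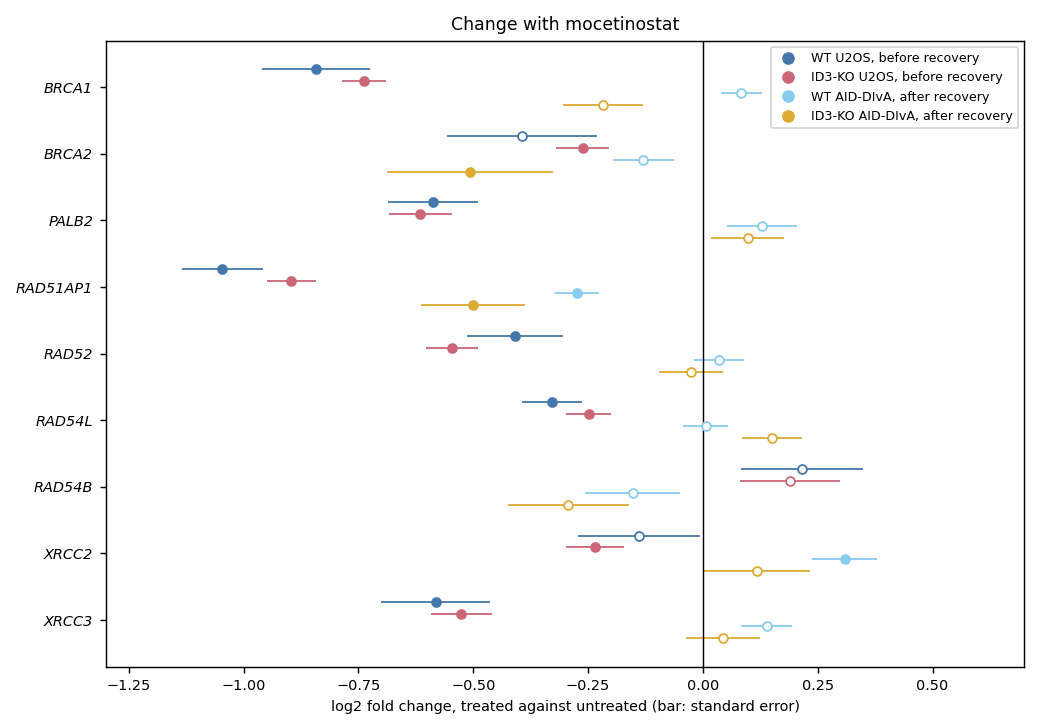
Log2 fold change of each gene with mocetinostat (treated against untreated, x axis; bars are standard errors) in the 4 pairs of groups; filled points passed an adjusted p below 0.05, open points did not. Before recovery the points of 8 genes lie left of 0 in both genotypes, from -1.05 to -0.14, and RAD54B lies right of it; after recovery RAD51AP1 stays left of 0 with filled points and most others lie near it.

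After recovery few of the 9 genes differed from untreated cells. In WT AID-DIvA cells 1 was higher and 1 lower, against 23.9% and 23% of 20289 genes tested; in ID3-KO AID-DIvA cells none was higher and 2 were lower, against 20.2% and 19.9% of 20362 genes. These counts lie near or below the shares of all genes. Leaving out any 1 library gave 1 or 2 higher and 1 or 2 lower in WT cells and 0 or 1 higher and 1 or 2 lower in ID3-KO cells. The share of all genes was not counted in those fits. The median over the 9 genes was 0.04 in WT and -0.03 in ID3-KO cells.

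RAD51AP1 was the gene lower in both genotypes after recovery. It was at 52.5, 53.6 and 54.8 CPM in untreated and 46.4, 43.1 and 42.7 CPM in recovered WT AID-DIvA cells. In ID3-KO AID-DIvA cells it was at 77.0, 75.5 and 72.6 CPM against 43.5, 56.7 and 58.3 CPM. The groups did not overlap in either genotype, and the log2 fold changes were -0.27 ± 0.05 (adjusted p = 0.000429) and -0.50 ± 0.11 (adjusted p = 0.00626). The 43.5 CPM came from the shallowest library, without which the ID3-KO value was -0.36 ± 0.06 (adjusted p = 0.000198).

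BRCA2 was at 50.6, 44.6 and 41.0 CPM in untreated and 22.2, 33.3 and 39.4 CPM in recovered ID3-KO AID-DIvA cells, a log2 fold change of -0.51 ± 0.18 that passed narrowly (adjusted p = 0.0483). The recovered libraries spread widely, and without the lowest of them the value was -0.30 ± 0.09 (adjusted p = 0.0135). BRCA2 did not pass there without recovered replicate 2 (adjusted p = 0.0839) or without untreated replicate 1, 2 or 3 (0.150, 0.131 and 0.101). In WT AID-DIvA cells BRCA2 was at 40.7, 38.3 and 44.7 against 39.9, 38.0 and 34.5 CPM, overlapping (-0.13 ± 0.07, adjusted p = 0.127). XRCC2 was higher in recovered than in untreated WT AID-DIvA cells, at 28.7, 26.2 and 24.3 against 20.8, 20.4 and 23.1 CPM (0.31 ± 0.07, adjusted p = 0.00259). In ID3-KO AID-DIvA cells its values of 21.7, 23.3 and 20.6 and of 19.7, 24.8 and 26.4 CPM overlapped (0.12 ± 0.12, adjusted p = 0.447), and without the shallowest library the estimate was 0.25 ± 0.07 (adjusted p = 0.013).

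The remaining genes did not pass after recovery. BRCA1 was at 102, 104 and 110 CPM in untreated and 115, 108 and 111 CPM in recovered WT AID-DIvA cells (0.08 ± 0.04, adjusted p = 0.146), and at 105, 109 and 95.7 against 79.7, 91.5 and 93.9 CPM in ID3-KO cells (-0.22 ± 0.09, adjusted p = 0.0702). These ID3-KO groups did not overlap, but the difference missed the threshold, and without the shallowest library, which held the 79.7 CPM, it was -0.13 ± 0.06 (adjusted p = 0.105). PALB2, RAD52, RAD54L, RAD54B and XRCC3 had log2 fold changes between -0.29 and 0.15 in both genotypes, with adjusted p of 0.0533 or more. RAD54L in recovered ID3-KO cells (67.7, 64.6 and 63.3 CPM) lay above all 3 untreated libraries (56.4, 57.7 and 62.0 CPM) with an adjusted p of 0.0925.

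The response itself differed between the stages. In the fit of all 24 libraries the log2 fold change after recovery minus that before it was called higher for 7 of 9 genes in WT cells, against 22.6% higher and 22.8% lower of 23087 genes, and for 6 of 9 in ID3-KO cells, where 1 was lower, against 21.7% and 24.3%. BRCA1 (0.93 ± 0.12 in WT, 0.52 ± 0.12 in ID3-KO cells), PALB2 (0.72 ± 0.12 in both), RAD51AP1 (0.77 ± 0.12 and 0.40 ± 0.12), RAD52, RAD54L and XRCC3 passed in both genotypes (adjusted p of at most 0.00772). XRCC2 passed in WT cells (0.45 ± 0.15, adjusted p = 0.0174) and missed in ID3-KO cells (0.35 ± 0.15, adjusted p = 0.0572), where it passed without the shallowest library (0.47 ± 0.14, adjusted p = 0.0082). RAD54B went the other way in ID3-KO cells (-0.48 ± 0.18, adjusted p = 0.0268) on levels of 3.51 to 6.05 CPM, and without the shallowest library it did not pass (-0.41 ± 0.18, adjusted p = 0.0731). BRCA2 did not pass in either genotype (adjusted p = 0.332 and 0.369). This contrast compares the 2 cell line labels as well as the 2 stages.

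Other genes of the pathway moved with the 9 before recovery. Of 51 further homologous recombination genes 50 were tested, and 27 were lower and 4 higher in treated WT U2OS cells (median log2 fold change -0.32; 22.9% and 26% of all genes), and 30 lower and 9 higher in ID3-KO U2OS cells (median -0.24; 34% and 35.8% of all genes). BARD1, the partner of BRCA1, was at -0.45 in WT and -0.66 in ID3-KO cells. RMI2, a subunit of the BLM complex that dissolves joined molecules, was the 1 gene of these 50 past a log2 fold change of 1 in size (-1.15 in WT cells). FIGNL1 (0.75 and 0.67), an ATPase, and FAM175A (0.82 and 0.81), the scaffold of the BRCA1-A complex, rose in both genotypes. After recovery 13 were higher and 10 lower in WT (median 0.06) and 7 higher and 10 lower in ID3-KO AID-DIvA cells (median -0.05), where 23.9% and 23% of all genes were called higher and lower in WT and 20.2% and 19.9% in ID3-KO cells.

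Cell cycle lists were read beside them, because homologous recombination genes follow the cycle. Of 42 S phase genes (RAD51AP1 left out), 29 were lower and none higher in treated WT U2OS cells (median -0.53), and 32 lower and 4 higher in ID3-KO U2OS cells (median -0.34). Their summed level was 5174 to 5281 CPM in untreated and 3332 to 3399 CPM in treated WT U2OS cells. After recovery 20 were higher and 9 lower in WT (median 0.14) and 11 higher and 7 lower in ID3-KO AID-DIvA cells (median -0.02). Of 54 G2/M genes 25 and 35 were lower before recovery (median -0.22 in both genotypes), whereas 52 were lower after it in each genotype, with medians of -0.65 in WT and -0.92 in ID3-KO cells. The summed G2/M level was 14325 to 14954 CPM in untreated and 8443 to 8686 CPM in recovered ID3-KO AID-DIvA cells. All-gene shares called lower were 22.9% and 34% before and 23% and 19.9% after recovery in WT and ID3-KO cells, and those called higher 26%, 35.8%, 23.9% and 20.2%. The medians of the 9 genes were below 0 before recovery, as were those of the S phase list, and near 0 after it, where those of the G2/M list were lowest. Exceptions among the 9 were RAD54B before recovery and, after it, RAD51AP1 in both genotypes, XRCC2 (higher) in WT cells and BRCA2 in ID3-KO cells. Between the U2OS genotypes the 2 lists did not run alike: the S phase median was lower in WT cells and that of the 9 genes lower in ID3-KO cells. The part of the cell cycle in these changes was not tested.

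**Figure D3:**
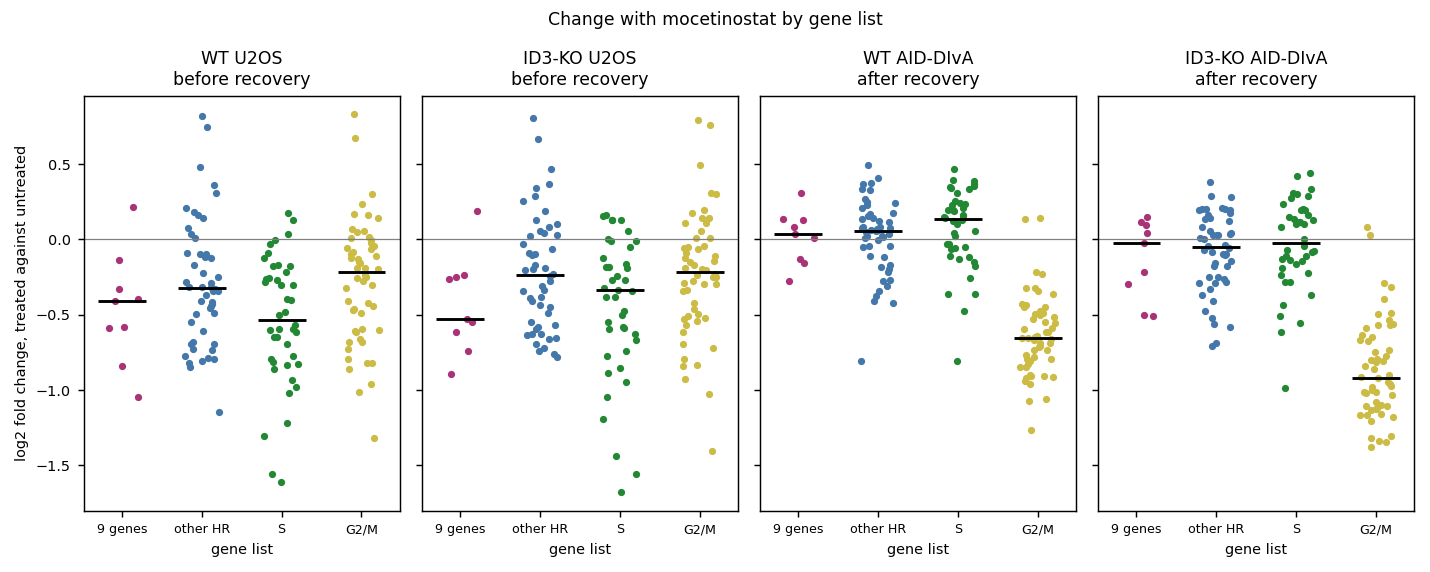
Log2 fold change with mocetinostat (y axis) of the 9 genes, 50 other homologous recombination genes, 42 S phase and 54 G2/M genes in the 4 pairs of groups; each point is a gene and the line is the list's median. Before recovery the medians of the 9 genes (-0.41 in WT and -0.53 in ID3-KO cells) and of the S phase list (-0.53 and -0.34) lie below 0. That of the 9 genes is the higher of the 2 in WT and the lower in ID3-KO cells. After recovery the medians of the 9 genes lie near 0 while those of the G2/M list are -0.65 and -0.92.

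The second question was how ID3-KO and WT cells differed at the same treatment. Among untreated AID-DIvA cells 2 of 9 genes were higher in ID3-KO cells and none lower, against 18.6% and 18.1% of 20441 genes; among untreated U2OS cells 1 was higher and none lower, against 6.56% and 8.63% of 20621 genes. The U2OS count was 5 without the untreated WT library that stood apart and 0 without any 1 of the 3 untreated ID3-KO libraries, and the AID-DIvA count was 4 without replicate 3 of untreated ID3-KO cells. Among treated U2OS cells 7 were higher and none lower, against 19% and 19% of 21800 genes. Among treated and recovered AID-DIvA cells 1 was higher and 1 lower, against 12.6% and 11.1% of 20100 genes. The count of 1 higher became 2 without ID3-KO replicate 1 of that pair and 0 without ID3-KO replicate 2 or WT replicate 2 or 3. For all fits without a library, the share of all genes called was not counted.

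RAD51AP1 was called higher in ID3-KO cells of both untreated lines and RAD52 in untreated AID-DIvA cells. For RAD51AP1 all 3 ID3-KO libraries lay above all 3 WT libraries in AID-DIvA (72.6 to 77.0 against 52.5 to 54.8 CPM) and in U2OS cells (55.9 to 58.2 against 38.4 to 46.5 CPM). The log2 differences were 0.46 ± 0.04 (adjusted p = 5.26e-07) and 0.44 ± 0.09 (adjusted p = 0.0149), and 0.60 ± 0.06 (adjusted p = 3.34e-09) in treated U2OS cells. In recovered AID-DIvA cells the groups overlapped through the shallowest library (0.25 ± 0.11, adjusted p = 0.141), and without it the difference was 0.38 ± 0.06 (adjusted p = 0.000641). For RAD52 the ID3-KO libraries lay above the WT libraries in all 4 pairs, with 0.32 ± 0.05 (adjusted p = 0.000208) in untreated AID-DIvA, 0.28 ± 0.07 (adjusted p = 0.0207) in recovered AID-DIvA, 0.37 ± 0.11 (adjusted p = 0.058) in untreated U2OS cells and 0.24 ± 0.06 (adjusted p = 0.0018) in treated U2OS cells. Without the untreated WT U2OS library that stood apart, RAD52 passed in untreated U2OS cells (0.27 ± 0.05, adjusted p = 5.93e-05), as did RAD54L (0.22), XRCC2 (0.21) and XRCC3 (0.30), which with it were at 0.24, 0.34 and 0.17 and did not pass.

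Both genes lie on chromosome 12, RAD52 at 1021243 to 1099219 and RAD51AP1 at 4647950 to 4669214 (hg19), and other genes of that region differed too. This was looked at after the values were seen. Among tested genes starting within the first 35 Mb of chromosome 12, about its short arm, the median log2 difference between ID3-KO and WT was 0.31 (300 genes) in untreated AID-DIvA, 0.27 (291) in recovered AID-DIvA, 0.18 (309) in untreated U2OS and 0.23 (319) in treated U2OS cells. Over the rest of the chromosome it was -0.01, -0.01, -0.01 and 0.01. In untreated AID-DIvA cells 59.0% of the genes of the first 35 Mb were called higher in ID3-KO cells, against 15.6% over the rest of chromosome 12 and 18% on the other chromosomes. The genes whose starts face those of RAD52 and RAD51AP1 on the other strand, 456 and 276 bases away, differed in some of the comparisons. ERC1 was at 0.57 in untreated AID-DIvA, 0.39 in recovered AID-DIvA and 0.52 in treated U2OS cells (adjusted p of at most 0.00218), and at 0.66 in untreated U2OS cells, where it did not pass (adjusted p = 0.0573). C12orf4 was at 0.54 in untreated AID-DIvA, 0.40 in untreated U2OS and 0.38 in treated U2OS cells (adjusted p of at most 0.0117), and at 0.12 in recovered AID-DIvA cells, where it did not pass (adjusted p = 0.512). The RAD51AP1 difference lay within the middle 50% of the region's genes in 3 of 4 comparisons and above it in treated U2OS cells (0.60, upper quartile 0.39), and that of RAD52 within it in all 4. These medians leave RAD51AP1 and RAD52 out. The part of this region in the difference was not tested, and DNA copy number was not analysed here. None of the other 7 genes lies on chromosome 12. Mocetinostat shifted the first 35 Mb as a whole little (medians from -0.08 to -0.02 in the 4 treatment comparisons). Nearer RAD51AP1 the shift was larger in WT U2OS cells: 92 tested genes starting within 2.5 Mb had a median of -0.36. Of these 39 were called lower and 14 higher, against 22.9% and 26% of all genes. The corresponding median around RAD52 was -0.12 (40 genes). Elsewhere in the same comparison it was -0.27 around RAD54L (80 genes), -0.003 around BRCA1, -0.08 around BRCA2 and 0.17 around PALB2. A fall of this kind was thus not particular to the surroundings of RAD51AP1. After recovery the medians around RAD51AP1 were -0.04 in WT and -0.07 in ID3-KO AID-DIvA cells.

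**Figure D4:**
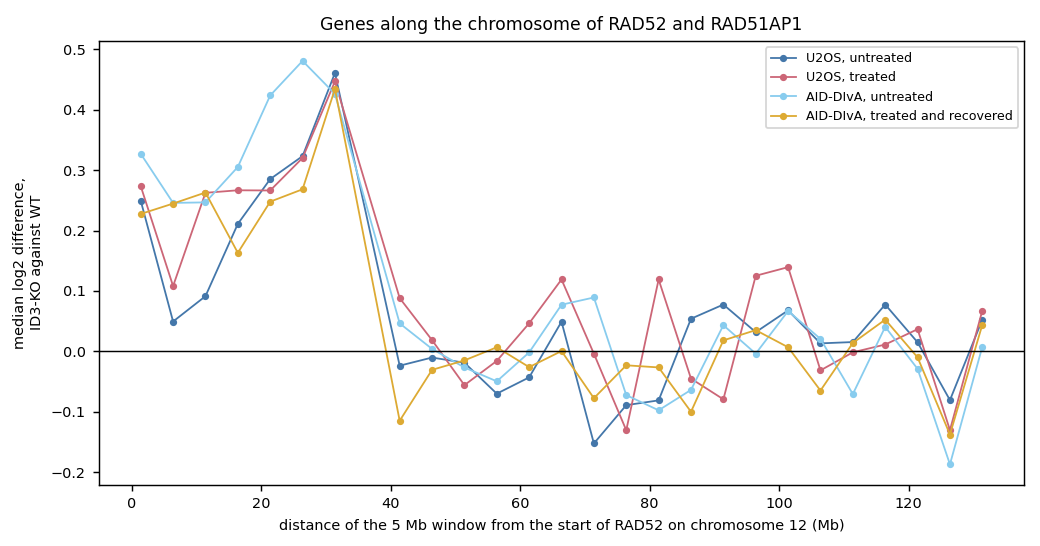
Median log2 difference between ID3-KO and WT cells (y axis) of the tested genes in successive 5 Mb windows of chromosome 12, by distance from the start of RAD52 (x axis, Mb; windows with at least 10 genes; the 9 genes left out), for the 4 pairs of groups. All 4 lines lie above 0 over the first 35 Mb of the chromosome, which hold RAD52 and RAD51AP1, and run between -0.19 and 0.14 beyond it.

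In treated U2OS cells 5 genes away from chromosome 12 were also higher in ID3-KO cells: BRCA1 (0.28 ± 0.05, adjusted p = 4.98e-05), BRCA2 (0.33 ± 0.06, adjusted p = 7.62e-05), RAD54L (0.32 ± 0.05, adjusted p = 4.31e-06), XRCC2 (0.26 ± 0.07, adjusted p = 0.0023) and XRCC3 (0.23 ± 0.06, adjusted p = 0.00418). For BRCA1, BRCA2, RAD54L and XRCC2 the 3 ID3-KO libraries lay above the 3 WT libraries. For XRCC3 they overlapped, with 1 ID3-KO library at 40.1 CPM below the highest WT library at 40.8 CPM. How many of all genes lay apart in this way was not counted. PALB2 (0.07 ± 0.07, adjusted p = 0.526) and RAD54B (0.26 ± 0.11, adjusted p = 0.0647) did not pass. Of the 50 other homologous recombination genes 23 were higher and 6 lower (median 0.11), against 19% higher and 19% lower of all genes. Of the S phase genes 35 were higher and 1 lower (median 0.28), and the part of the cell cycle here was not tested. In the fit of all 4 U2OS groups 3 of the 9 genes passed here (BRCA1, RAD51AP1 and RAD54L), and the share of all genes called in that fit was not counted.

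After recovery BRCA1 was the 1 gene lower in ID3-KO AID-DIvA cells: 79.7, 91.5 and 93.9 against 115, 108 and 111 CPM, a difference of -0.34 ± 0.08 (adjusted p = 0.00985), or -0.27 ± 0.06 without the shallowest library. Untreated ID3-KO and WT AID-DIvA cells overlapped for BRCA1 (-0.06 ± 0.05, adjusted p = 0.403). Its surroundings were lower too in ID3-KO cells: 145 tested genes starting within 2.5 Mb of it had a median difference of -0.18, in recovered as in untreated AID-DIvA cells. That median was also below 0 in untreated (-0.19) and treated U2OS cells (-0.26), where BRCA1 was at 0.17 and 0.28. The untreated U2OS value of BRCA1 did not pass (edgeR quasi-likelihood test, adjusted p = 0.390). Without the untreated WT library that stood apart it was 0.05 ± 0.04 (adjusted p = 0.348).

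**Figure D5:**
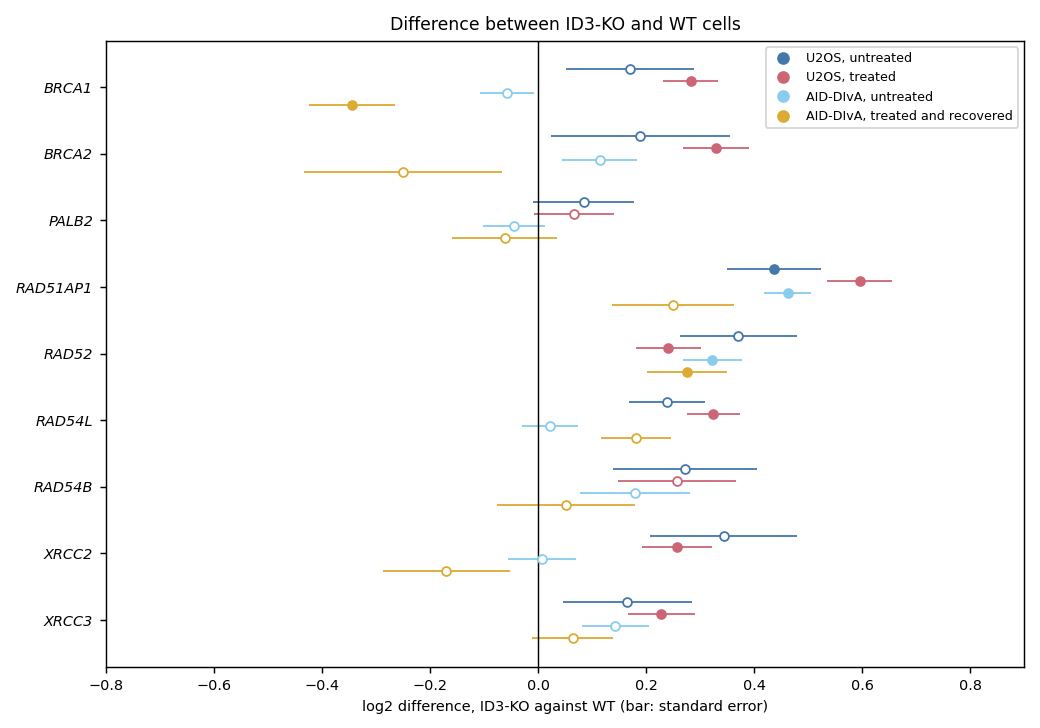
Log2 difference between ID3-KO and WT cells (x axis; bars are standard errors) of each gene in the 4 pairs of groups; filled points passed an adjusted p below 0.05, open points did not. RAD51AP1 and RAD52 lie right of 0 in all 4 pairs (0.24 to 0.60), and BRCA1 lies left of it in recovered AID-DIvA cells (-0.34) and right of it in treated U2OS cells (0.28).

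Whether the response to mocetinostat differed between genotypes was tested as an interaction. None of the 9 genes passed in AID-DIvA or in U2OS cells (edgeR quasi-likelihood test, adjusted p of at least 0.218 and 0.591), against 0.762% higher and 0.451% lower of 21265 genes and 1.1% and 1.06% of 22647 genes. In AID-DIvA cells BRCA2 was at -0.37 ± 0.23 (-0.17 ± 0.12 without the shallowest library), and BRCA1 at -0.29 ± 0.10 had the smallest unadjusted p (0.00935), the only one below 0.05 in either line. With all U2OS libraries BRCA1 was at 0.11 (adjusted p = 0.773) and BRCA2 at 0.13 (adjusted p = 0.799). Without the library that stood apart, BRCA1 (0.23 ± 0.06, adjusted p = 0.0155) and BRCA2 (0.31 ± 0.09, adjusted p = 0.0171) passed there, in the direction of a smaller fall in ID3-KO cells. Leaving out each U2OS library in turn gave 0.03 to 0.23 for BRCA1 and -0.02 to 0.31 for BRCA2 (adjusted p up to 0.922 and 0.963). These 2 calls thus hung on 1 library, and the share of all genes called in that fit was not counted.

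Levels of different genes were compared per length. In the authors' TPM (abundance scaled by transcript length and library depth) the medians over 24 libraries were 58.2 for RAD51AP1, 57.3 for RAD54L, 37.3 for BRCA1, 19.3 for XRCC3, 17.2 for RAD52, 13.2 for XRCC2, 12.5 for PALB2, 8.92 for BRCA2 and 2.50 for RAD54B. Ranges of neighbours in this order overlapped except at 2 steps: RAD54L (47.7 to 68.7 TPM) lay above BRCA1 (19.7 to 43.1 TPM), and RAD54B (1.64 to 3.53 TPM) below BRCA2 (5.14 to 13.9 TPM). In CPM, BRCA1 ran from a mean of 46.8 ± 0.471 (SD, n = 3) in treated WT U2OS cells to 111 ± 3.31 in recovered WT AID-DIvA cells, and RAD51AP1 from 20.2 ± 0.448 in treated WT U2OS to 75.1 ± 2.25 in untreated ID3-KO AID-DIvA cells. Treated WT U2OS cells had the lowest mean of the 8 groups for all genes but RAD54B, whose lowest mean was in untreated WT U2OS cells (3.17 ± 0.398 CPM). Between the cell line labels, untreated WT levels of BRCA2 were 38.3 to 44.7 CPM in AID-DIvA and 19.1 to 31.4 CPM in U2OS libraries, whereas XRCC3 was at 41.0 to 43.5 and 52.1 to 68.5 CPM; these label differences were not tested.

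Over the 24 libraries BRCA1 and PALB2 ran most alike among the 36 pairs of these genes (Pearson r = 0.942 on log2(CPM + 1)), followed by BRCA1 and RAD51AP1 (0.883), and RAD54B and XRCC3 least (-0.383). Among 15584 genes the one most like BRCA1 was KPNB1, a nuclear import receptor (0.978). EXOSC10, a nuclease of the RNA exosome, was most like PALB2 (0.974), ZBTB8A most like RAD51AP1 (0.973) and QSER1 most like BRCA2 (0.976). LIMK2 came first for RAD52 (0.948), the S phase factor E2F2 for RAD54L (0.950), SCAI for RAD54B (0.921), MDM2, the regulator of p53, for XRCC2 (0.968), and NUDT1, which clears oxidised nucleotides, for XRCC3 (0.948). These coefficients describe libraries that share treatment, genotype and cell line label.

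Several of these genes share a promoter region with a gene that starts within 1000 bases on the other strand, and the partners did not always move together. Distances were taken between the outermost starts of the genes in hg19. For RAD52 the promoter entry with TTCCCGC lies further inside the gene, not beside that start. Before recovery NBR2, 127 bases from BRCA1, was lower like BRCA1 (-0.66 in WT and -0.41 in ID3-KO U2OS cells), and so was ZFYVE21, 226 bases from XRCC3 (-0.26 and -0.30). DCTN5, 82 bases from PALB2, did not pass (0.07 and -0.03), and neither did C12orf4 beside RAD51AP1 (-0.04 and -0.07) or ERC1 beside RAD52 (0.16 and 0.01).

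Counting limits touch a few genes. The counts used take reads of either strand, so reads of overlapping genes on opposite strands cannot be told apart. Counts of the reverse strand were 1.08 to 1.13 times those of either strand for RAD54L, which overlaps LRRC41, and 1.03 to 1.06 times for PALB2, and for XRCC3, which overlaps KLC1, the ratio ran from 0.973 to 1.07. RAD54B overlaps FSBP on the same strand, so their reads may be split, and it rested on 132 to 374 counts a library.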

How the data were processed

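RNA-seq counts per gene were analysed for 24 libraries in 8 groups of 3. The authors made the deposited counts from stranded, paired total RNA libraries with the Roddy RNA-seq workflow (STAR and featureCounts, GRCh37/hg19, per the submitters' processing notes; versions not given in the sources used here), counting reads of either strand. The deposited TPM values are the authors' own and were used only to compare levels between genes. The 9 genes and the lists (51 further homologous recombination genes, 42 S phase and 54 G2/M genes of Seurat 5.3.0, cell markers) were chosen with earlier results of these data known. Genes were named as members, or from a list when past a log2 fold change of 1, and the 2 genes most like each member by correlation were listed; other names, among them the further repair genes given as examples, chromosome 12 and the neighbouring genes, were chosen after values were seen.

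Each pair of groups was fitted alone with edgeR 4.0.16 in R 4.3.3 (filterByExpr, TMM, robust quasi-likelihood F test, Benjamini-Hochberg adjustment over all genes tested). Interactions used the 4 groups of a line and the contrast of stages all 24 libraries. A call means an adjusted p below 0.05, and the standard error is the log2 fold change over the square root of F. Titles, not the contradicting treatment field, set the groups. The replicates are biological replicates per the methods. The script was tested on simulated data. Alternatives were DESeq2 1.42.0, DESeq2's size factors in edgeR, other filters, a replicate block, reverse-strand counts, a fold threshold, joint fits and leaving out each library. A sequence was read from RefSeq's promoter table, since the files' build has no genome here.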

Additional observations from a re-analysis of the deposited data

Results flagged for a closer look

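The response to mocetinostat differed between the stages, by a test of the difference itself, in 14 instances (log2 fold change after recovery in AID-DIvA cells minus that before recovery in U2OS cells, edgeR quasi-likelihood test over 24 libraries). In WT cells these were BRCA1 (0.93), PALB2 (0.72), RAD51AP1 (0.77), RAD52 (0.45), RAD54L (0.34), XRCC2 (0.45) and XRCC3 (0.72). In ID3-KO cells they were BRCA1 (0.52), PALB2 (0.72), RAD51AP1 (0.40), RAD52 (0.53), RAD54L (0.41), XRCC3 (0.58) and, in the other direction, RAD54B (-0.48). Stage and cell line label cannot be told apart in these values. The RAD54B difference did not pass without any 1 of 5 ID3-KO libraries, among them replicate 1 of treated and recovered AID-DIvA cells (-0.41, adjusted p = 0.0731).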

How the results depend on the processing

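No called value changed sign under any alternative. With a log2 fold change past 1 also required, the 6 genes lower in treated WT U2OS cells became 1, and every other count of calls above 0 became 0. Genes higher in recovered WT AID-DIvA cells went from 1 to 2 with at least 10 counts in every library or reverse-strand counts. Genes lower in recovered ID3-KO AID-DIvA cells went from 2 to 1 under those 2 settings and the replicate block, and genes higher there from 0 to 1 with the 4 groups in one fit. Between genotypes, the gene higher in untreated U2OS cells became 2 (no filter, or reverse-strand counts), 3 (DESeq2) or 4 (4 groups in one fit), that in recovered AID-DIvA cells 2 (no filter, or 4 groups in one fit) or 0 (replicate block), and the 7 in treated U2OS cells 3 (4 groups in one fit). Leaving out each library in turn gave, for treatment, 1 to 2 higher and 1 to 2 lower (recovered WT), 0 to 1 higher and 1 to 2 lower (recovered ID3-KO), 5 to 8 lower (WT U2OS) and 8 lower (ID3-KO U2OS). It gave, for ID3-KO against WT, 2 to 4 higher (untreated AID-DIvA), 0 to 5 (untreated U2OS), 0 to 2 (recovered AID-DIvA) and 6 to 8 (treated U2OS), 0 to 2 higher for the U2OS interaction, and 6 to 7 higher and 0 to 1 lower for the stages in each genotype. Shares of all genes called were not counted in the refits, and the cause was not tested. No clear pairing by replicate number was seen: correlations of same-numbered libraries ran from -0.381 to 0.258 and no comparison had all of them above 0.1. They were taken on deviations from the mean of 3 libraries, where 1 outlying library weighs much, so they cannot exclude pairing. Depth limits RAD54B most, at 132 to 374 counts a library.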
